A study of Mus musculus with 24 samples.

Results

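The genes described here encode the 10 dual-specificity MAP kinase phosphatases Dusp1, Dusp2, Dusp4, Dusp5, Dusp6, Dusp7, Dusp8, Dusp9, Dusp10 and Dusp16, out of 18193 genes that had a probe set of their own on the array. They form a gene family, were read by 18 probe sets, and in each tissue the probe set that stood for a gene was chosen by its highest mean log2 signal over the arrays. That choice used the measured signals, so the levels that set it are given as a description. Gene expression had been measured on 24 Affymetrix arrays of epididymal adipose tissue, the fat pad beside the epididymis, and of liver, from 12 mice that carried or lacked GPR120. GPR120 is a G protein-coupled receptor for long-chain fatty acids, encoded by Ffar4. The groups were GPR120 knockout (KO) mice on a high-fat diet (HFD; mice 427, 428 and 429), wild-type (WT) mice on HFD (546, 547 and 560), KO mice on a normal diet (ND; 718, 719 and 720) and WT mice on ND (686, 687 and 690). Each group had 3 mice, each mouse gave both tissues, and all shared a mixed 129/Sv and C57BL/6 background. The age of the mice, the length of feeding and the way the gene was disrupted are not given in the sources used here.

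MAP kinase phosphatases remove the phosphates from both the threonine and the tyrosine of an active MAP kinase and so switch it off. Dusp1, Dusp2, Dusp4 and Dusp5 encode nuclear enzymes whose genes are switched on within minutes to hours by growth factors and stress, Dusp6, Dusp7 and Dusp9 encode cytoplasmic enzymes that prefer ERK, and Dusp8, Dusp10 and Dusp16 encode enzymes that prefer JNK and p38. Because ERK and stress kinases induce several of these genes, they form a negative feedback loop on MAP kinase signalling. In fat and liver the family is known for its part in responses to insulin, inflammation and glucocorticoids.

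The sequences before the start sites of Dusp1, Dusp5 and Dusp6 are printed because on HFD the first of these was higher in KO adipose tissue and in livers labelled KO, the second was higher in KO adipose tissue, and the third, a feedback gene of the ERK pathway, did not pass between genotypes in either tissue. Each line gives the 250 bases before the RefSeq start site on the gene's own strand, 5′ to 3′ (build GRCm38.p6), and 8 of the 10 genes had an entry. Capitals mark the cAMP response element (CRE) TGACGTCA, its core TGACG, the AP-1 site TGACTCA, the motif TATAAA and the CArG box, the element that serum response factor binds. All were searched on both strands, and a CRE holds the core on each strand.
Dusp1, chr17:26508473-26508722, minus strand: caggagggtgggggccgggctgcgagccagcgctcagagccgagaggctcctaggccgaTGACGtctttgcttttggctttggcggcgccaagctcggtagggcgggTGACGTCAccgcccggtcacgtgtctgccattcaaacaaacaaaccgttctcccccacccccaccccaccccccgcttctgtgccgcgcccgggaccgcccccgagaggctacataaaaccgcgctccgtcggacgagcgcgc
Dusp5, chr19:53528895-53529144, plus strand: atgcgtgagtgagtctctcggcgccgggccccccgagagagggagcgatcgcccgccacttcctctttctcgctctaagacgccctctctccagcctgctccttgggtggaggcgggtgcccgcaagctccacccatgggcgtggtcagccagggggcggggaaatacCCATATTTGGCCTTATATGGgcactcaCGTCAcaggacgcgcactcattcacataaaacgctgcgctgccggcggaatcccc
Dusp6, chr10:99262981-99263230, plus strand: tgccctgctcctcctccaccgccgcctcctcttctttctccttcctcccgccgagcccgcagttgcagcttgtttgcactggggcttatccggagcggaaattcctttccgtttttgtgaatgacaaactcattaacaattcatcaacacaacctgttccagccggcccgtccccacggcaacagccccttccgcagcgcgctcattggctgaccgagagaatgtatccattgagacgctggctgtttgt
The Dusp1 promoter held a CRE at 143 to 136 bases before the start and a further core at 191 to 187 bases. The Dusp5 promoter held a pair of adjoining CArG boxes at 82 to 73 and 72 to 63 bases, and a CRE core on the opposite strand at 55 to 51 bases. The Dusp6 window held none of these letters. Of 32851 promoter windows of the same length, 1.55% held a CRE, 17.8% its core, 4.46% an AP-1 site, 12.4% TATAAA and 1.47% a CArG box. Among the other members Dusp8 had CREs at 107 to 100 and 63 to 56 bases, and Dusp16 had a core at 70 to 66 bases.

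The arrays were scaled alike, with a trimmed mean signal of 100.03 to 100.05, and pairs within a group correlated at Spearman's rho of 0.889 to 0.964 over probe sets. The 10 measured adipocyte markers summed to 14556 to 35381 intensity units per adipose array and to 548 to 1422 per liver array, while the 10 hepatocyte markers summed to 1921 to 10029 per adipose array and 69448 to 109282 per liver array. Ffar4 itself, read by 1 probe set, was at 23.1 to 30.5 in KO adipose tissue and 97.3 to 171 in WT adipose tissue on HFD, and at 33.7 to 35.7 in KO and 58.3 to 73.7 in WT adipose tissue on ND. In liver it ran the other way: 13.5 to 18.3 on arrays labelled KO and 0.55 to 1.63 on arrays labelled WT on HFD, and 21.5 to 36.8 against 1.07 to 17.3 on ND. The place of this probe set relative to the disrupted part of the gene is not known here, and the genotype of every liver array is given below as its label. The adipose arrays of 2 mice stood apart from the rest of their groups. KO mouse 427 had an epididymis and testis marker sum of 3702, against 35.7 to 117 in the other KO mice on HFD, and an epithelial marker sum of 2507, against 71.0 to 106. WT mouse 547 had a skeletal muscle marker sum of 6615, against 320.1 and 846 in the other WT mice on HFD.

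In adipose tissue on HFD, KO mice had more Dusp1 and more Dusp5 than WT mice, and no other member was called, the nuclear phosphatase Dusp4 included (log2 -0.51). Of the 9 members tested, 2 rose and 0 fell, a share of 22.2% that lay at the background, since 22.5% of all 11613 genes passed in this comparison (limma with Benjamini-Hochberg adjustment over all genes, called at an adjusted p under 0.05). The median log2 difference was -0.01 over the 9 members and -0.03 over all genes. Groups did not overlap for 3 of the 9, against 38% of all genes. Dusp2 was left out of the tests in this tissue because its mean lay under the median probe set's mean, 19.3 intensity units, which was the filter level in adipose tissue.

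**Figure D1:**
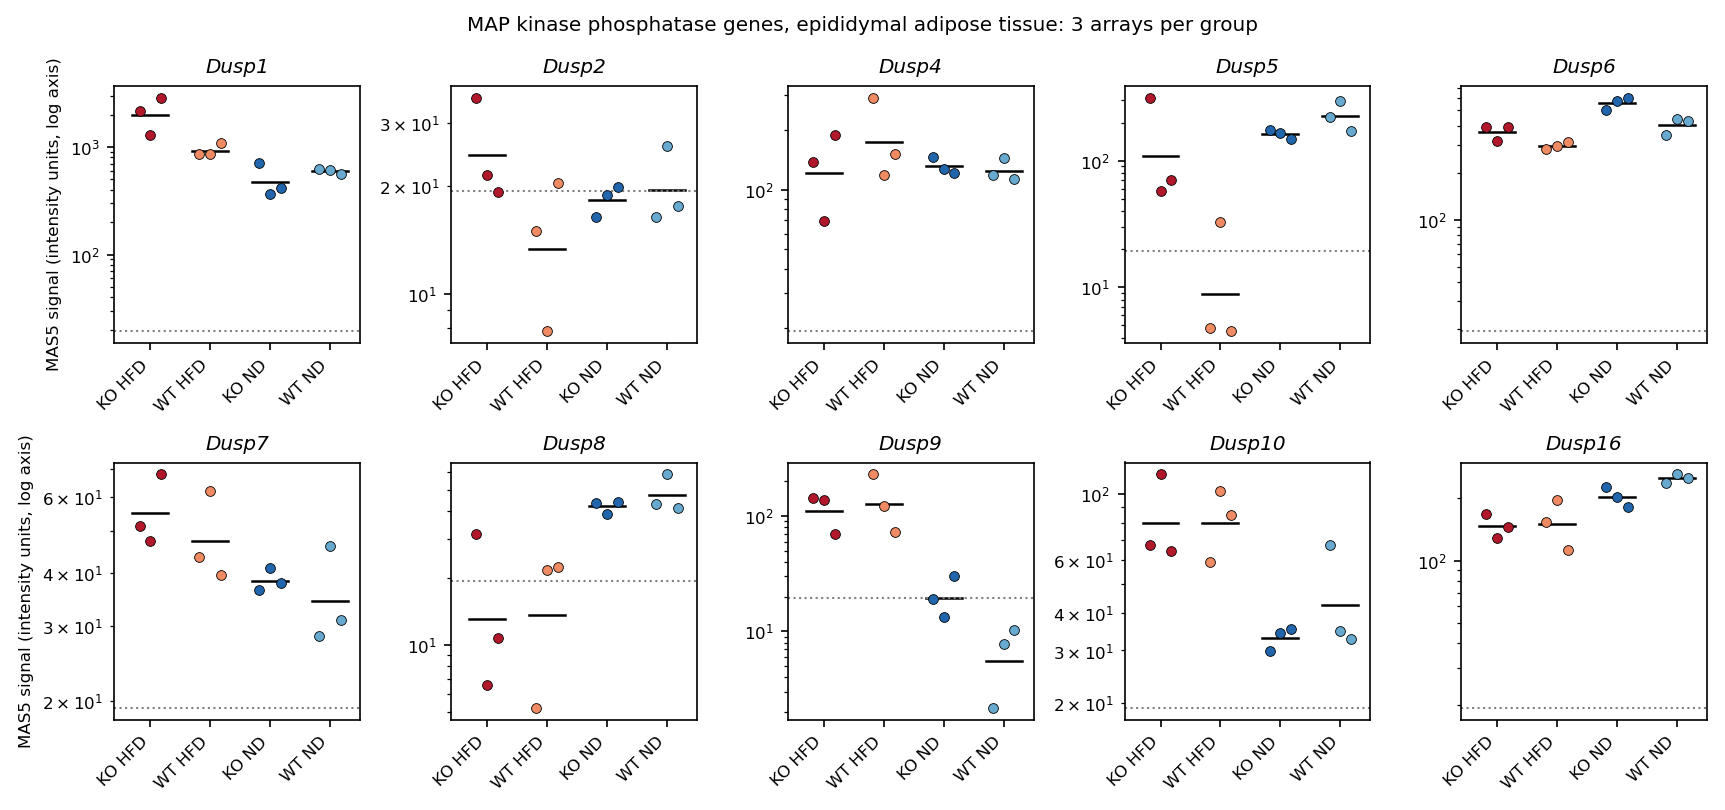
Signal of each gene on the 12 adipose arrays (log axis, intensity units), KO HFD, WT HFD, KO ND and WT ND from left to right; points are mice, bars geometric means and the dotted line the filter level. On HFD the KO points of Dusp1, Dusp5 and Dusp6 all lie above the WT points, and in WT mice Dusp9 stands higher and Dusp5, Dusp6, Dusp8 and Dusp16 stand lower on HFD than on ND.

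Dusp1, also called MKP-1, acts on p38, JNK and ERK in the nucleus. Its signal on HFD was 2146, 1286 and 2866 in KO adipose tissue, against 854, 855 and 1082 in WT adipose tissue. Every KO array lay above every WT array. The log2 difference was 1.11 ± 0.29 (SE, n = 3 mice per group, adjusted p = 0.018), and the group means were 2099 ± 791 in KO and 931 ± 131 in WT mice (SD, n = 3). On ND the signals were 709, 366 and 418 in KO mice, against 622, 611 and 556 in WT mice, and the groups overlapped (log2 -0.32 ± 0.29, adjusted p = 0.701). The call on HFD was lost without KO mouse 429 (log2 0.84, adjusted p = 0.0734), without WT mouse 546 (1.05, 0.0597) and without mice 427 and 547 together (0.997, 0.0785). Over its 14 alternatives the log2 difference ran from 0.84 to 1.42 and the adjusted p from 0.00398 to 0.0785.

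Macrophage markers moved with this difference: 11 of the 15 tested were higher in KO and 1 lower, and their summed signal was 18991 to 28425 in KO mice and 8383 to 13258 in WT mice on HFD. Endothelial markers ran the other way, with 11 of 11 lower in KO and sums of 2026 to 3011 in KO against 6074 to 6466 in WT mice. Adipocyte markers were lower in KO as well, with 5 of 10 lower and 0 higher and sums of 19905 to 30085 in KO against 31932 to 35381 in WT mice. Of 8 fibroblast and progenitor markers 3 were higher in KO and 0 lower, with sums of 6478 to 9859 in KO and 4464 to 5340 in WT mice. Of 12 T, NK and B cell markers, 1 passed the filter. The Actb 3′ over 5′ log2 ratio, a sign of RNA quality, was 0.73 ± 0.10 in KO and 1.44 ± 0.28 in WT adipose tissue on HFD (SD, n = 3). The part of these in the differences of the phosphatase genes was not tested. In RNA from whole tissue, fewer cells of a type and less RNA per cell cannot be told apart.

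Dusp5, a nuclear phosphatase with a strong preference for ERK, showed the widest gap between genotypes of the 9 tested members. On HFD its signal was 315, 57.3 and 70.7 in KO adipose tissue, against 4.80, 33.1 and 4.48 in WT adipose tissue. The groups did not overlap, and 2 of the 3 WT arrays lay under the filter level. The log2 difference was 3.60 ± 0.75 (n = 3 per group, adjusted p = 0.00691 by limma), and with WT arrays raised to the filter level where they lay under it Dusp5 was at least 4.69-fold higher in KO mice. The highest KO array, 315, came from mouse 427, whose epididymis and epithelial markers were high. Without that array alone the log2 difference of Dusp5 was 2.83 (adjusted p = 0.0141) and the bound was at least 2.75-fold, while without WT mouse 547 they were 4.55 and at least 5.62-fold. Without both arrays the difference was 3.78 ± 0.25 (adjusted p = 3.67e-05), and over all 14 alternatives the adjusted p ran from 3.67e-05 to 0.0399.

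On ND, Dusp5 signals were 174, 166 and 147 in KO adipose tissue, against 222, 297 and 172 in WT adipose tissue, and they overlapped (log2 -0.47 ± 0.75, adjusted p = 0.869). WT mice had less Dusp5 on HFD than on ND, by at least 9.72-fold (log2 -4.65 ± 0.75, adjusted p = 0.000377). KO mice showed a log2 difference of -0.58 ± 0.75 between HFD and ND that did not pass (adjusted p = 0.546), and without mice 427 and 547 it was -1.35 ± 0.23 (adjusted p = 0.000858). The low WT signals on HFD enter both the genotype and the diet comparison. Epididymis and testis marker sums were 35.7 to 3702 on HFD and 43315 to 53226 on ND in KO mice, and 185 to 312 on HFD and 53939 to 71678 on ND in WT mice. All 14 of these markers were lower on HFD in WT mice and 11 of 14 in KO mice, and all 7 epithelial markers were lower on HFD in both. Macrophage markers were higher on HFD, 13 of 15 in KO and 11 of 15 in WT mice. Endothelial markers were higher on HFD for 3 of 11 in KO and 11 of 11 in WT mice, and adipocyte markers for 3 of 10, with 1 lower, in KO and 8 of 10 in WT mice. Of all genes, 48.7% passed in either direction between diets in KO and 55.3% in WT mice. The Actb 3′ over 5′ log2 ratio was 0.73 on HFD and 0.80 on ND in KO mice, and 1.44 on HFD and 0.90 on ND in WT mice. That of Gapdh was -0.09 to -0.05 on HFD and -0.48 to -0.38 on ND in KO mice. In WT mice it was -0.001 to 0.21 on HFD and -0.41 to -0.34 on ND. The part of all these in the diet differences of the phosphatase genes was not tested. Dusp5 lies on chromosome 19, as Ffar4 does, with 158 protein-coding genes between them. Of these, 101 were tested and 22 passed in KO versus WT adipose tissue on HFD, where 22.5% of all genes passed.

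Dusp4, a nuclear phosphatase of ERK and JNK, passed in no comparison within adipose tissue. On HFD it was at 138, 69.2 and 188 in KO mice, against 290, 118 and 151 in WT mice (log2 -0.51 ± 0.36, adjusted p = 0.348), and the groups overlapped. On ND its signals lay closer together, at 121 to 146 in KO and 112 to 144 in WT mice. Dusp2, the phosphatase also known as PAC-1 and best known from lymphocytes, was near or under the filter level on most adipose arrays. Its signals on HFD were 35.3, 21.4 and 19.3 in KO mice, against 15.0, 7.84 and 20.3 in WT mice.

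More members passed between diets than between genotypes in adipose tissue. In WT mice 2 of 9 members were higher on HFD than on ND and 4 were lower, where 55.3% of all genes passed. In KO mice 3 were higher and 2 were lower, where 48.7% of all genes passed. Both shares of members called, 66.7% in WT and 55.6% in KO mice, lay near these backgrounds. The groups did not overlap for 6 of 9 members in WT and 7 of 9 in KO mice, against 61.2% and 62.2% of all genes. On ND, 0 of 9 members passed between KO and WT mice, where 0.25% of all genes passed by limma and 1617 genes had an unadjusted p under 0.05.

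Dusp1 rose on HFD in KO adipose tissue by a log2 difference of 2.06 ± 0.29 (adjusted p = 0.000185), with signals on HFD of 1286 to 2866 against 366 to 709 on ND. In WT mice the diet difference was 0.63 ± 0.29 and did not pass (adjusted p = 0.0807), although the 3 arrays on HFD, 854 to 1082, all lay above the 3 on ND, 556 to 622. The difference between these diet effects, which equals the difference between the genotype effects on the 2 diets, was 1.43 ± 0.41 (adjusted p = 0.0452, limma interaction term). The same term for Dusp5 was 4.07 ± 1.06 (adjusted p = 0.0338). These 2 were the members called of 9, all higher, where 11% of all genes passed and 3.76% passed in that direction. Without the filter on low signals, 0 of the 9 passed, with adjusted p of 0.0704 for Dusp1 and 0.0544 for Dusp5.

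**Figure D2:**
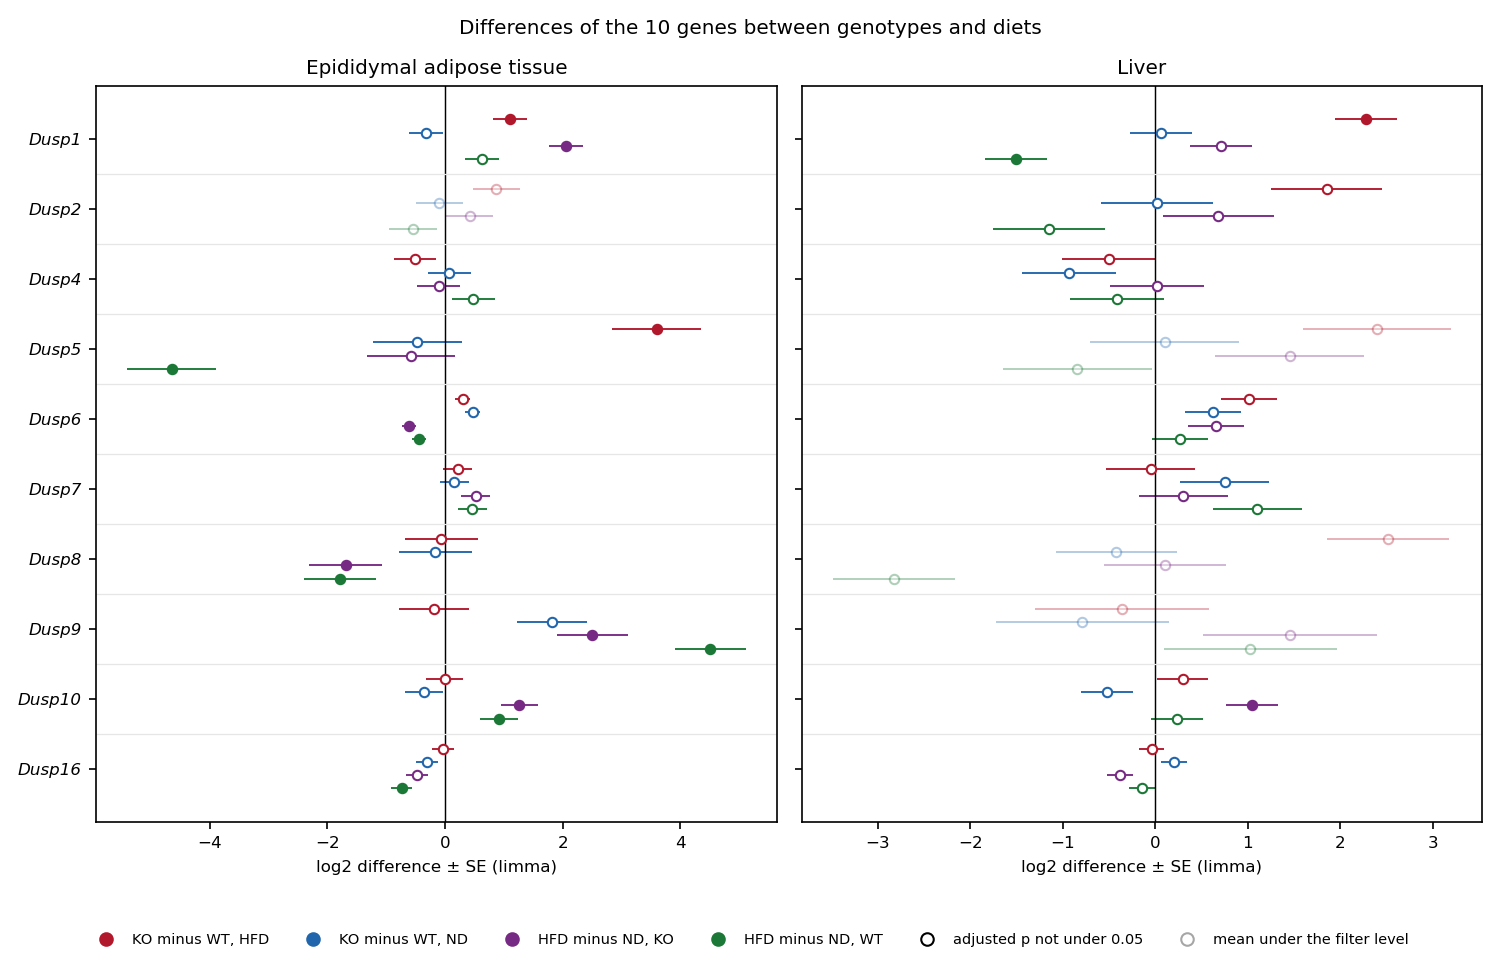
Log2 differences with their standard errors (limma) for the 10 genes in adipose tissue and liver, KO minus WT on each diet and HFD minus ND in each genotype; filled points had an adjusted p under 0.05, pale points lay under the filter level, and the 2 panels have different horizontal scales. Dusp1 and Dusp5 stand to the right for KO minus WT on HFD in adipose tissue, and Dusp1 alone is filled for that comparison in liver.

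Among the cytoplasmic members, Dusp6, the ERK-selective phosphatase MKP-3, was lower on HFD in both genotypes. Its adipose signals on HFD were 393, 320.3 and 389 in KO mice and 282, 295 and 316 in WT mice. On ND they were 504, 574 and 603 in KO mice and 349.8, 439 and 429 in WT mice. HFD arrays lay below ND arrays in each genotype, by log2 -0.61 ± 0.13 in KO (adjusted p = 0.00217) and -0.44 ± 0.13 in WT mice (adjusted p = 0.0115), and both calls held in all 14 alternatives. KO arrays lay above WT arrays on each diet without overlap, but the differences of 0.30 ± 0.13 on HFD (adjusted p = 0.111) and 0.47 ± 0.13 on ND (adjusted p = 0.148) did not pass.

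Dusp9, the ERK-preferring phosphatase MKP-4, which is known from insulin-responsive tissues, gave the largest rise on HFD of any tested member. Its brightest probe set read 143, 138 and 69.8 in KO and 231, 122 and 72.8 in WT adipose tissue on HFD. On ND it read 19.04, 13.2 and 29.9 in KO and 2.17, 7.75 and 10.2 in WT adipose tissue. All 3 WT arrays on ND were under the filter level, and HFD was at least 6.58-fold higher in WT mice (log2 4.51 ± 0.60, adjusted p = 0.000101). In KO mice 2 of the 3 arrays on ND lay under that level. The KO log2 difference was 2.51 ± 0.60 (adjusted p = 0.00538), and both calls held in all 14 alternatives. The KO signals on ND all lay above the WT signals on ND, but this difference, log2 1.82 ± 0.60, did not pass (adjusted p = 0.217). The diet effects were not shown to differ between genotypes (interaction log2 -2.01 ± 0.85, adjusted p = 0.15).

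The 3 probe sets of Dusp9 gave diet differences of 4.20, 4.51 and 4.60 in WT and 2.90, 2.51 and 2.41 in KO adipose tissue on the log2 scale, so they moved the same way. Those of Dusp8 disagreed: the brightest gave -1.79 in WT and -1.69 in KO mice, the next in brightness gave -0.69 and 0.16, and the dimmest gave 0.80 and 0.35. Dusp7, another cytoplasmic ERK phosphatase, was at 47.5 to 67.9 in KO and 39.5 to 61.9 in WT adipose tissue on HFD, and at 36.4 to 40.9 in KO and 28.5 to 46.1 in WT adipose tissue on ND. It passed in no comparison within a tissue.

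**Figure D3:**
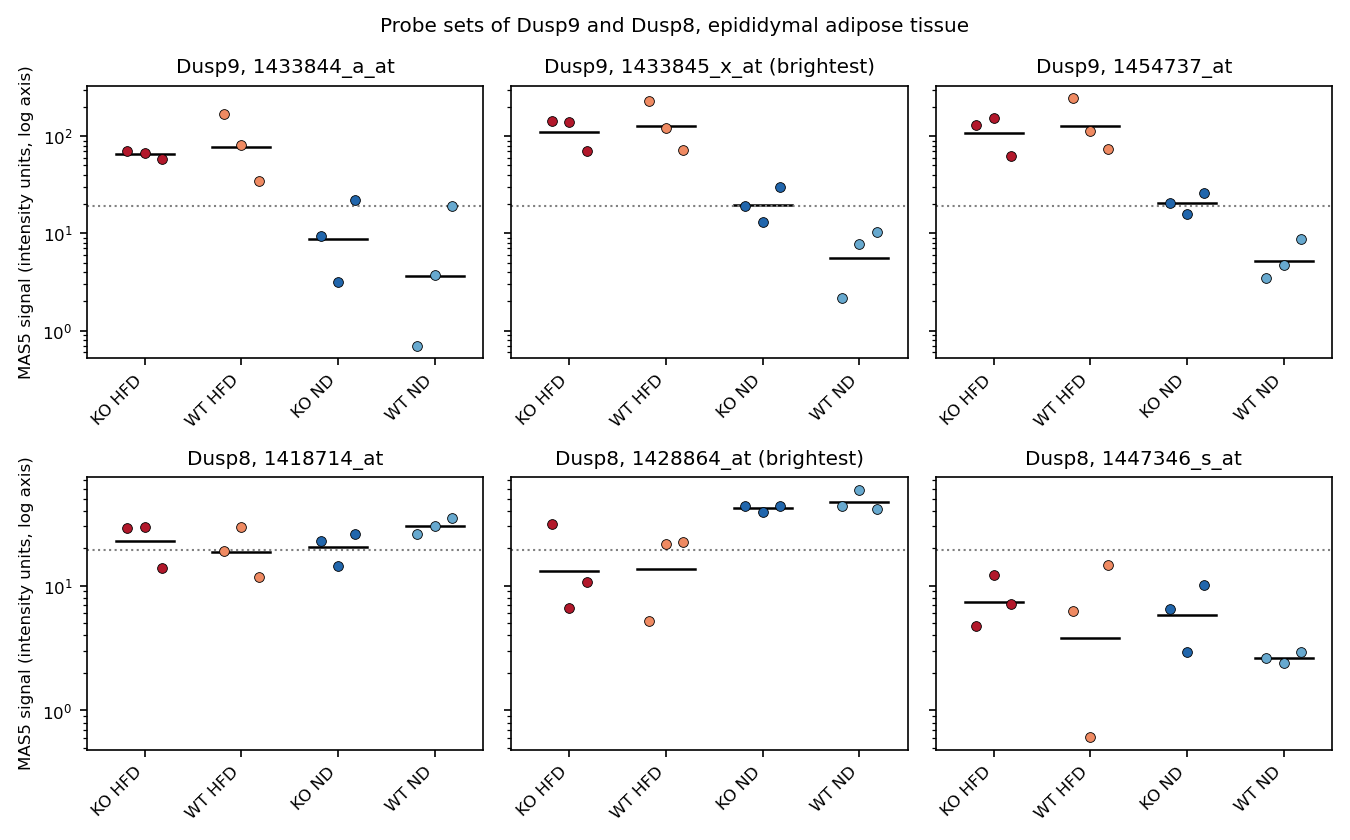
Signals of the 3 probe sets of Dusp9 (upper row) and of Dusp8 (lower row) on the 12 adipose arrays (log axis, intensity units), with groups, points, bars and dotted line as in the plot of the 10 genes. The Dusp9 probe sets agree in standing higher on HFD, while for Dusp8 the brightest probe set stands lower on HFD and the other probe sets show no such gap.

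Of the members that prefer JNK and p38, Dusp16 (MKP-7) fell on HFD in WT mice and Dusp10 (MKP-5) rose on HFD in both genotypes. Dusp16 was at 154, 196 and 113 on HFD and 238, 262 and 252 on ND in WT adipose tissue (log2 -0.74 ± 0.19, adjusted p = 0.00581), and this call held in all 14 alternatives. In KO mice it was at 168, 128 and 146 on HFD and 228, 203 and 182 on ND (log2 -0.48 ± 0.19, adjusted p = 0.0533). The arrays of the 2 diets did not overlap in either genotype.

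Dusp10 was at 67.3, 116 and 64.5 on HFD and 29.8, 34.4 and 35.3 on ND in KO adipose tissue. In WT mice it was at 59.3, 102 and 84.8 on HFD and 67.5, 34.9 and 32.7 on ND, so that 1 ND array lay among those on HFD. The log2 difference was 1.27 ± 0.32 in KO mice (adjusted p = 0.00748), and the smaller value, 0.91 ± 0.32, belonged to WT mice (adjusted p = 0.0317). With the mean of the Dusp10 probe sets the KO difference was 0.41 and its call was lost (adjusted p = 0.34), the 1 loss in 14 alternatives. In WT mice the call was lost in 7 of 14 alternatives, including those without mouse 547 (0.74, adjusted p = 0.112), 560 (0.87, 0.0802), 687 (0.77, 0.0971) or 690 (0.72, 0.113). The dimmer probe set of Dusp10, whose mean was 2.63 intensity units, gave -0.46 in KO mice.

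Dusp8, which acts on JNK, was at 31.4, 6.58 and 10.7 on HFD and 43.6, 38.9 and 43.8 on ND in KO adipose tissue. In WT mice it was at 5.19, 21.8 and 22.3 on HFD and 43.2, 58.7 and 41.3 on ND. It was lower on HFD by at least 1.85-fold in KO (adjusted p = 0.0408) and at least 2.23-fold in WT mice (adjusted p = 0.0284). With the mean of its probe sets neither call held (adjusted p of 0.344 and 0.167). The KO call was lost without any 1 of mice 428, 429, 718, 719 and 720 (adjusted p of 0.0818 to 0.152), and the WT call without any 1 of mice 546, 686, 687 and 690 (0.0529 to 0.107). In KO versus WT mice on HFD none of Dusp8, Dusp10 and Dusp16 passed, with log2 differences of -0.06, -0.01 and -0.04 (limma; no member of these 3 had an adjusted p under 0.916).

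In liver, Dusp1 was the only tested member called between genotypes on HFD. Of 7 members tested, 1 was higher and 0 lower on arrays labelled KO, where 6.71% of all 11125 genes passed. The median log2 difference was 0.30 over the 7 members and -0.03 over all genes. The groups did not overlap for 3 of the 7, against 29.3% of all genes. Dusp5, Dusp8 and Dusp9 were not tested because their mean log2 signals over the 12 liver arrays lay under the filter level of 13.0 intensity units. For Dusp8 that mean fell just short, at 3.67 against 3.69, and its arrays labelled WT HFD were the low ones.

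**Figure D4:**
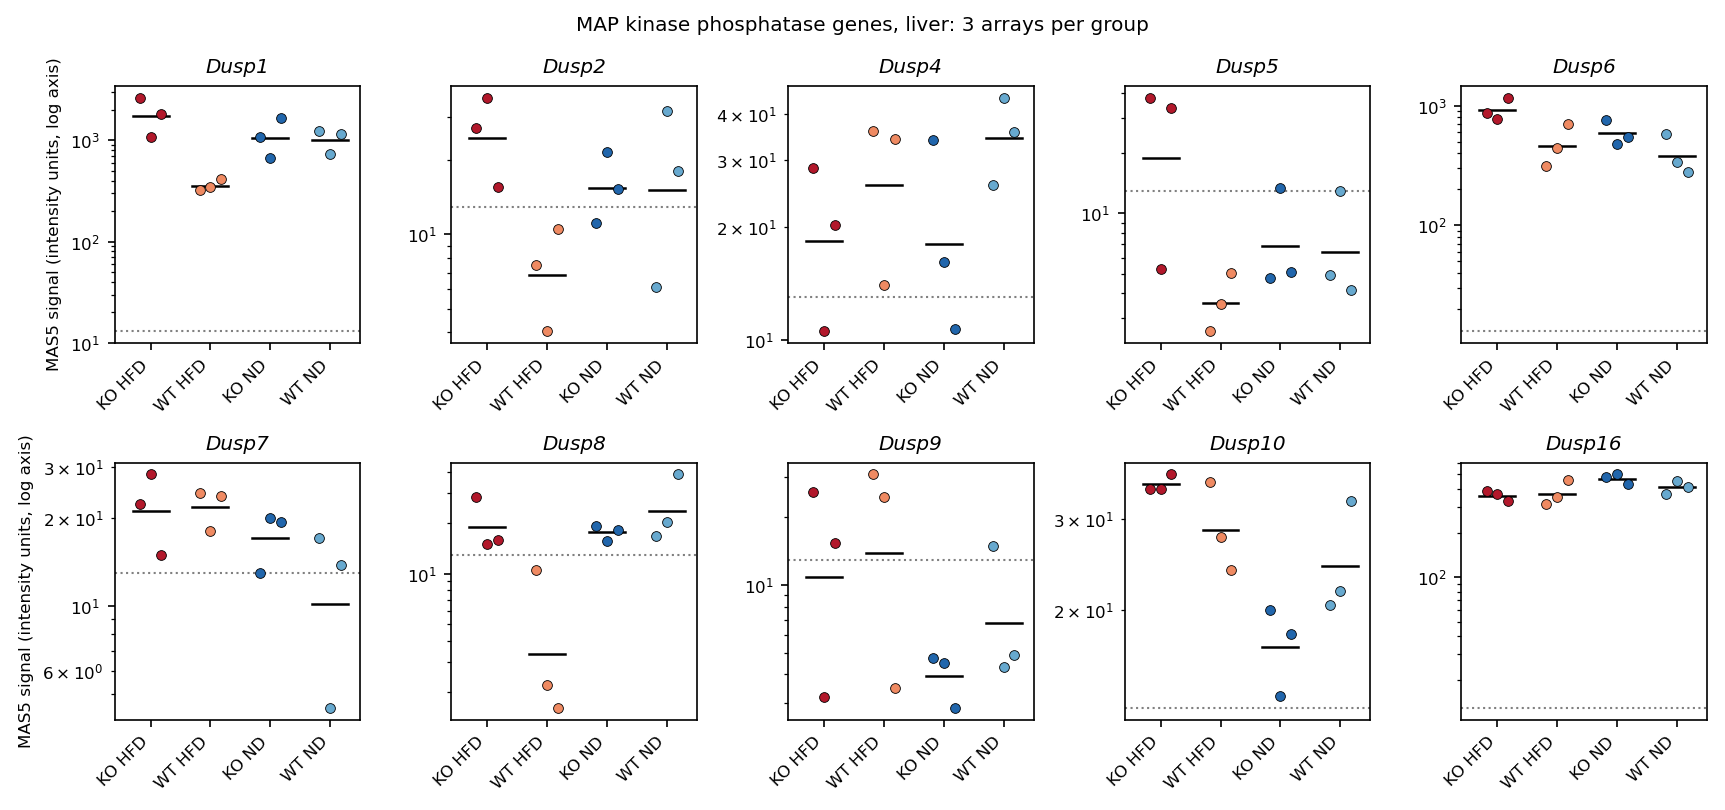
Signal of each gene on the 12 liver arrays (log axis, intensity units), groups by label from left to right KO HFD, WT HFD, KO ND and WT ND; points are mice, bars geometric means and the dotted line the filter level. The 3 arrays labelled WT HFD are the lowest of all 12 for Dusp1, at 321 to 415.

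Dusp1 signals on HFD were 2642, 1084 and 1805 in livers labelled KO, against 321, 344 and 415 in livers labelled WT. The lowest array labelled KO lay above the highest labelled WT. The log2 difference was 2.27 ± 0.34 (n = 3 per group, adjusted p = 0.00193 by limma), and it passed in all 13 alternatives (1.97 to 2.61, adjusted p of 0.000823 to 0.0115). On ND the signals were 1079.7, 664 and 1658 in livers labelled KO and 1243, 734 and 1150.4 in livers labelled WT, which overlapped (log2 0.06 ± 0.34, adjusted p = 0.936). None of the 7 members passed on ND, where 4.71% of all genes passed by limma and 2339 had an unadjusted p under 0.05.

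The diet comparisons show where the gap lay. In livers labelled WT, Dusp1 fell on HFD by 1.51 on the log2 scale (SE 0.34, adjusted p = 0.0122), the only call of 7 members where 12.5% of all genes passed. The Actb 3′ over 5′ log2 ratio moved between the same groups, at 2.04 ± 0.05 on HFD and 1.18 ± 0.07 on ND in livers labelled WT (SD, n = 3), and its part was not tested. In livers labelled KO the Dusp1 difference of 0.71 ± 0.34 did not pass (adjusted p = 0.172). There the Actb ratio was 1.70 on HFD and 1.29 on ND. The interaction term of Dusp1 was 2.21 ± 0.47 (adjusted p = 0.0482), 1 call of 7 members where 0.989% of all genes passed and 0.62% passed in that direction. This last call was lost with quantile normalization (adjusted p = 0.0524), without the filter (0.0773), with the mean of probe sets (0.0699), without the variance trend (0.116) and on leaving out any 1 of 10 of the 12 arrays (0.0522 to 0.107).

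Liver macrophage markers summed to 6910 to 8039 on arrays labelled KO HFD and 5215 to 6434 on arrays labelled WT HFD, with 3 of 16 tested higher and 1 lower in KO. Hepatocyte markers summed to 69448 to 76349 on arrays labelled KO HFD and 84364 to 95066 on arrays labelled WT HFD, with 4 of 10 lower and 0 higher in KO. Adipocyte markers summed to 1200 to 1422 on arrays labelled KO HFD and 548 to 684 on arrays labelled WT HFD, with 3 of 5 tested higher and 0 lower in KO. The Actb 3′ over 5′ log2 ratio was 1.70 ± 0.01 in livers labelled KO and 2.04 ± 0.05 in livers labelled WT on HFD (SD, n = 3). Their part in the Dusp1 difference was not tested.

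Dusp6 in liver was at 869, 775 and 1163 in livers labelled KO and 312, 439 and 694 in livers labelled WT on HFD. The groups did not overlap, yet the log2 difference of 1.01 ± 0.30 did not pass (adjusted p = 0.0622), and without WT mouse 560 it did (1.32, adjusted p = 0.0212). Dusp2 was at 26.9, 35.8 and 15.6 in livers labelled KO and 7.50, 4.04 and 10.5 in livers labelled WT on HFD. All 3 arrays labelled WT lay under the filter level, and the log2 difference of 1.85 ± 0.60 did not pass (adjusted p = 0.0839).

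Of the members that did not reach the liver filter, Dusp5 was at 37.8, 5.27 and 33.6 in livers labelled KO and 2.58, 3.55 and 5.02 in livers labelled WT on HFD. With no filter its log2 difference was 2.39 ± 0.80 (adjusted p = 0.139). Dusp8 was at 28.7, 15.0 and 15.8 in livers labelled KO and 10.5, 2.18 and 1.60 in livers labelled WT on HFD (log2 2.51 ± 0.66 with no filter, adjusted p = 0.0619). In livers labelled WT, Dusp8 was at 10.5, 2.18 and 1.60 on HFD and 16.7, 20.2 and 38.9 on ND, and with no filter this difference passed (adjusted p = 0.025). All 3 of these HFD arrays lay under the filter level, so that only a bound of at least 1.82-fold holds. The other probe sets of Dusp8 gave 0.23 and -1.13 for this diet difference. Between genotypes on HFD they gave 0.28 and 0.80, and none of these values passed. Dusp9, which rose on HFD in adipose tissue, was at 2.84 to 31.0 over the 12 liver arrays, and its groups overlapped between the genotypes on each diet.

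Dusp10 was the 1 of 7 members called between diets in livers labelled KO, where 16.5% of all genes passed. It was at 34.4, 34.3 and 36.7 on HFD and 20.0, 13.7 and 17.96 on ND (log2 1.05 ± 0.28, adjusted p = 0.0226). In livers labelled WT it was at 35.4, 27.7 and 23.9 on HFD and 20.5, 21.8 and 32.5 on ND, which overlapped (log2 0.23 ± 0.28, adjusted p = 0.643). With the mean of its probe sets the KO difference was -0.19, and the call was lost without any 1 of mice 427, 428, 429, 719 and 720 (adjusted p of 0.0506 to 0.0788). Dusp4, Dusp7 and Dusp16 passed in no liver comparison, with signals of 10.5 to 44.1, 4.47 to 28.3 and 315 to 502 over the 12 arrays.

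Between WT adipose tissue and livers labelled WT on HFD, 5 of 9 members were higher in adipose tissue and 2 were lower. In this comparison 65.7% of all 11455 genes passed, and it rests on the liver labels, against which Ffar4 ran. The median log2 difference was 1.32 over the 9 members and 0.21 over all genes. Dusp4 was at 290, 118 and 151 in adipose tissue and 35.9, 14.0 and 34.1 in liver (log2 2.75 ± 0.46, adjusted p = 2.77e-05). Dusp10, Dusp1 and Dusp7 were higher in adipose tissue by log2 differences of 1.48, 1.37 and 1.12. For Dusp1 this direction was not shared on ND, with mean signals of 596 in WT adipose tissue and 1043 in livers labelled WT. The KO means on ND were 498 in adipose tissue and 1134 in livers so labelled, and on HFD 2099 and 1844. These other groups were not tested between tissues. Dusp8 was also called (adjusted p = 0.000617), with all 3 liver arrays under the filter level, so that only a bound of at least 1.19-fold holds. Without the adipose array of mouse 547 there was no bound above 1, and averaging its probe sets ended the Dusp8 call (log2 0.92, adjusted p = 0.0688). The other probe sets of Dusp8 gave 0.97 and -0.70. Dusp16 was lower in adipose tissue, at 154, 196 and 113 against 315, 350.01 and 459 in liver (log2 -1.30 ± 0.17, adjusted p = 8.68e-07).

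Dusp6 was lower in WT adipose tissue than in livers labelled WT on HFD, by log2 -0.62 ± 0.26 (adjusted p = 0.04). Its 282 to 316 in adipose tissue overlapped 312 to 694 in those livers. This call was lost without the liver array of mouse 560 (-0.32, adjusted p = 0.284), the liver array of 547 (-0.65, 0.0639), or the adipose array of 546 (-0.58, 0.0937), 547 (-0.61, 0.0779) or 560 (-0.66, 0.057). That of Dusp7 was lost without the adipose (0.92, 0.074) or the liver array (0.98, 0.0601) of mouse 547. With quantile normalization (0.75, adjusted p = 0.139) and with the mean of probe sets (0.71, 0.0658) the Dusp7 call was lost too. Dusp9 was not tested, since its mean log2 signal over the 24 arrays lay under the filter level, 15.8 intensity units. On HFD the probe set of Dusp9 used here was nevertheless at 169, 81.0 and 34.9 in WT adipose tissue. In livers labelled WT it was at 31.0, 24.7 and 3.48, without overlap, so that it was at least 3.41-fold higher in adipose tissue. With no filter this passed (log2 2.50, adjusted p = 0.046), but in a limma fit of all probe sets it did not (adjusted p = 0.0523). The Dusp9 probe set that was brightest in adipose tissue gave 6.30 in that fit (adjusted p = 2.12e-06). Its signals in livers labelled WT on HFD were 0.29 to 2.45, near the floor of 1.1, so the size of 6.30 is uncertain. With the mouse as a replicate block, since each mouse gave both tissues, 7 members were again called.

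With the liver labels as given, the KO minus WT difference on HFD was compared between the tissues, and 0 of 9 members passed, where 11.1% of all genes passed (limma). These values rest on the liver labels, against which Ffar4 ran: exchanged labels would turn the sign of every liver effect, so nothing is drawn from this count. For Dusp1 the adipose effect minus the liver effect was -1.17 ± 0.48 (adjusted p = 0.131). For Dusp5 it was 1.21 ± 1.12 (adjusted p = 0.549). For Dusp8 it was -2.23 ± 0.80 (adjusted p = 0.0779), and with quantile normalization it passed at -2.36 (adjusted p = 0.0454). This value of Dusp8 came from the probe set brightest over both tissues, which was not the brightest in adipose tissue. The other probe sets of Dusp8 gave -0.34 and -0.12.

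Over the 12 adipose arrays, the genes whose centred log2 profiles lay nearest to Dusp1 were Zfp36, which encodes an mRNA-destabilizing protein, and Mcm3, a subunit of the replicative helicase, with root mean square differences of 0.297 and 0.301, against a spread of 0.853 for Dusp1 itself. For Dusp5 they were Cd52, a leukocyte surface antigen, and B4galnt1, a ganglioside synthase (0.608 and 0.67, against 2.03). For Dusp9 they were Tmem182 and Npr3, the natriuretic peptide clearance receptor (0.569 and 0.575, against 1.99). Dusp6 lay nearest to Arf3 (0.118, against 0.349), Dusp10 to Atg7 (0.254, against 0.66), Dusp16 to Ide (0.13, against 0.377) and Dusp8 to Slc27a2 (0.474, against 1.11). In liver Dusp1 lay nearest to Gstm2 (0.362) and Acyp2 (0.492), against its own 0.929, and Dusp10 to Wipf3 and Hs1bp3, both at 0.208 against 0.443. These nearest genes are a description of 12 arrays that share their groups.

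Genes around the phosphatases in the pathway moved unevenly in KO versus WT adipose tissue on HFD, where 22.5% of all genes passed. Of 17 tested ERK feedback inhibitors and targets, 6 were higher and 0 lower, with a median log2 difference of 0.63 against -0.03 over all genes. They included Egr2, Egr3 and Fos, immediate early transcription factors, at 3.29, 2.41 and 1.60, and Junb at 1.21 (adjusted p of 0.000154, 0.00297, 0.00125 and 0.00454). Of 18 JNK and p38 targets and effectors, 8 were higher and 3 lower, with a median of 0.30, among them the stress factor Atf3 at 2.97 (adjusted p = 0.000893), Gadd45b at 1.33, Zfp36 at 0.71 and Atf2 at -0.51. Without mice 427 and 547, where 24.1% of all genes passed, these counts were 5 higher and 1 lower for the first list and 6 and 2 for the second. The macrophage and endothelial sums given above moved between the same groups.

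The kinases themselves were called in both directions in that comparison, where 22.5% of all genes passed. Of 8 tested MAP kinases, 1 was higher, Mapk6 (ERK3), at 0.56 (adjusted p = 0.0173), and 1 was lower, Mapk12 (p38 gamma), at -0.95 (adjusted p = 0.00161). Of 22 kinases and adaptors upstream of them, 3 were higher and 4 lower, with the adaptor Grb2 at 1.02, the ERK kinase gene Map2k1 at 0.57, Map3k5 (ASK1) at -0.78 and Araf at -0.64. Of 12 atypical dual-specificity phosphatases 0 were higher and 2 lower, Dusp26 at -1.20 and Dusp28 at -0.74. Of 10 tyrosine and serine phosphatases of MAP kinases 0 were higher and 2 lower, Ptprr, lower by at least 2.16-fold, and Ppm1d at -0.53, and without mice 427 and 547 the count was 1. Of 12 glucocorticoid induced genes 0 were higher and 3 lower, Zbtb16 at -1.62, Fkbp5 at -0.92 and Klf9 at -0.53, and without those mice 5 were lower.

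In liver on HFD, with 6.71% of all genes passing, 1 of 15 tested ERK feedback and target genes was higher on arrays labelled KO, Fos at log2 2.95 (adjusted p = 0.00761). Of 18 JNK and p38 targets 4 were higher and 0 lower, with Atf3 at 3.35 (adjusted p = 0.00386) and Zfp36 at 1.28 (adjusted p = 0.00505). Mapk14, p38 alpha, was the 1 of 6 MAP kinases called, at -0.43 (adjusted p = 0.0358). No atypical phosphatase (of 11), upstream kinase (of 22) or tyrosine and serine phosphatase (of 8) passed there. Of 12 glucocorticoid induced genes 1 was higher, Lcn2 at 2.07 (adjusted p = 0.000241). Between diets in livers labelled WT, 5 of those 12 were lower on HFD and 0 higher, where 12.5% of all genes passed. Ddit4 was at -4.46 and Lcn2 at -2.34, and the median of the 12 was -1.29 against 0.00 over all genes.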

How the data were processed

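RNA of epididymal adipose tissue and liver had been measured on 24 Affymetrix arrays (45101 probe sets, 64 of them controls). The authors' deposited values are linear signal intensities made with MAS5, per the submitters' processing notes (version not given in the sources used here). MAS5 subtracts mismatch from perfect match probes and scales each array to a common mean, so dim probe sets carry much noise. Of the probe sets, 34945 had 1 gene symbol, 932 several and 9160 none.

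Before log2, a floor was set at each tissue's 10th percentile, 1.08 for adipose tissue and 1.1 for liver. Only genes at or above the median probe set's mean log2 signal were tested. The 4 groups of a tissue were fitted with limma 3.58.1 in R 4.3.3 (lmFit and eBayes with a trend), and both tissues in a joint fit for tissue differences. P-values were adjusted by Benjamini-Hochberg over all genes tested, and an adjusted p under 0.05 made a call. Every p-value given is from limma. Bounded folds raise each array of the dimmer group that lay under the filter level to it. The number of arrays limits the precision. The fits were tested on simulated data.

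The text names all 10 members, Ffar4, from each pathway list up to 4 genes of smallest p in KO versus WT adipose tissue on HFD and up to 2 elsewhere, and the nearest profiles of called members. Members, lists and markers were chosen with earlier results of these data known. Each mouse gave both tissues, which pairs them. Deviations from group means of the 2 tissues of a mouse correlated at 0.0181 to 0.0756. The alternatives were quantile normalization, no floor, no filter, the mean of probe sets, another probe set choice and no variance trend. Further ones were fewer groups, each array left out, 2 adipose arrays left out together, and the mouse block. Those 2 arrays were of mice 427 and 547, which stood apart. For KO versus WT adipose tissue on ND they were instead of mice 686 and 690, which left WT mouse 687 alone in its group. Counts over the pathway lists without the adipose arrays of mice 427 and 547, and bounds without each array, were added after seeing the data. Promoter sequences and gene positions are from RefSeq (GRCm38.p6).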

Additional observations from a re-analysis of the deposited data

Results flagged for a closer look

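For 2 members in adipose tissue and 1 in liver the difference between genotypes depended on the diet by limma's interaction term. In adipose tissue the KO minus WT difference of Dusp1 was larger on HFD than on ND by 1.43 on the log2 scale (adjusted p = 0.0452, all 3 KO arrays above all 3 WT arrays on HFD and overlapping groups on ND). That of Dusp5 was larger on HFD by 4.07 (adjusted p = 0.0338, again 3 of 3 on HFD and overlap on ND). Of the 3 WT arrays on HFD behind the Dusp5 value 2 lay under the filter level, so that its size is uncertain, and leaving out each array it ran from 3.30 (without mouse 427) to 5.02 (without mouse 547). In liver that of Dusp1 was larger on HFD by 2.21 between arrays labelled KO and WT (adjusted p = 0.0482, 3 of 3 on HFD and overlap on ND). All 3 lay close to the threshold and were lost without the filter on low signals, at adjusted p of 0.0704, 0.0544 and 0.0773. Leaving out 1 array ended the Dusp1 call in adipose tissue for 10 arrays, all but those of KO mice 428 and 718 (adjusted p of 0.0646 to 0.106), and the Dusp5 call for 8 arrays, those of mice 546, 560, 686, 687, 690, 718, 719 and 720 (0.0504 to 0.0803). In liver it ended the Dusp1 call for 10 arrays, all but those of mice 428 and 720 (0.0522 to 0.107).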

How the results depend on the processing

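Of 26 member differences called among 98 tested, 14 kept their call and direction in every alternative, among them Dusp5 and Dusp9 between diets in WT adipose tissue and Dusp1 between genotypes on HFD in liver. Over 375 alternatives of the 26, 83 lost the call and 2 changed direction: Dusp8 between diets in KO adipose tissue, at 0.16 with the probe set brightest over both tissues, and Dusp10 between diets in livers labelled KO, at -0.19 with the mean of probe sets. In adipose tissue the interaction, with 2 members called, gave 0 without the filter and 1 with the mean of probe sets, without the variance trend or without mice 427 and 547, and 0 to 2 on leaving out each array. KO versus WT on HFD, with 2 called, gave 1 without mice 427 and 547 and 1 to 2 on leaving out each array. HFD versus ND in KO mice, with 5, gave 3 with the mean of probe sets and 4 to 6 on leaving out each array, and in WT mice, with 6, 4 to 5. In liver the interaction, with 1 called, gave 0 with quantile normalization, without the filter, with the mean of probe sets and without the trend, and 0 to 1 on leaving out each array. HFD versus ND gave 2 without the filter in livers labelled WT and, in livers labelled KO, 0 without the filter or with the mean of probe sets, 3 with the compared groups alone and 0 to 1 on leaving out each array. KO versus WT on HFD in liver gave 1 to 2. The adipose and liver difference of WT mice called 7 members, 8 without the filter and 5 to 7 on leaving out each array, and that of the genotype effect, with 0, gave 1 with quantile normalization and 0 to 1. With the mouse as a replicate block these paired tissue comparisons called 7 and 0 members, as without it, and the block changed no other call. The cause of these changes was not tested. Signals near or under the filter level limit Dusp2, Dusp5, Dusp8 and Dusp9 in both tissues and Dusp4 and Dusp7 in liver, and 3 arrays per group limit every test.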
